A study of Saccharomyces cerevisiae with 10 samples.

Results

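The members described here were the probe sets of the small nuclear and small nucleolar RNAs of the budding yeast Saccharomyces cerevisiae. They were taken as every probe set that the platform annotation pairs with 1 gene whose symbol starts with SNR and a digit, at any signal level, which gave 63 of 9275 non-control probe sets. They stand for 61 of 5656 genes with a probe set of their own, of which SNR39B and SNR62 have 2 probe sets each. The annotation placed 0 SNR genes among probe sets shared by several genes, and the RefSeq table of assembly R64 lists 81 SNR genes in all. The series compared a strain with a deletion of EDC3 (labelled edc3D here), 5 arrays, with the wild-type strain HFY114 (WT), 5 arrays, which the design text calls isogenic. The deletion strain is named CFY25 in the sample labels, while the series' design names it SYY14. Both strains were grown without treatment in rich YEPD medium at 30 °C, total RNA was taken with hot phenol, and 6 µg of it was labelled with biotin for an Affymetrix Yeast Genome S98 array. Edc3 is a cytoplasmic protein that stimulates removal of the cap from mRNA, and the sources used here give no further alleles of the strains.

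Small nucleolar RNAs (snoRNAs) guide the chemical modification of ribosomal RNA in the nucleolus. C/D box snoRNAs base-pair with ribosomal RNA and direct methylation of ribose, H/ACA box snoRNAs direct conversion of uridine to pseudouridine, and a few of either class are needed to cut the ribosomal precursor. Small nuclear RNAs (snRNAs) form the core of the spliceosome. The mature forms of both kinds are not polyadenylated, although short adenosine tails are added to some of their precursors in the nucleus. The labels cite the standard Affymetrix labelling protocol, which as background starts from an oligo-dT primer and so favours polyadenylated RNA. A signal here is therefore no measure of the amount of the mature RNA. Which form of a transcript (mature, precursor or read-through) gave a signal was not tested.

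The strain labels matched the EDC3 signal, which averaged 1.38 ± 0.85 in edc3D and 469 ± 8.93 in WT (SD, n = 5 each). The labels pair the arrays of the strains by number and by the experiment letters A, B, C, E and G, and call them biological replicates. The arrays of experiments E and G of a strain were closer to each other than any other pair of that strain. Between them the log2 ratios of the 2653 probe sets brighter than 200 had a scaled median absolute deviation of 0.08 in edc3D and 0.09 in WT, and 0.21 to 0.48 in the remaining same-strain pairs. Over the detectable members the median absolute log2 difference between E and G was 0.15 in edc3D and 0.12 in WT, and 0.18 to 0.46 in the remaining ones. The sources used here do not say whether E and G were separate cultures. Counts of calls, SNR68, CBF5, the median of the detectable members and some further members are therefore also given without them. Each array was scaled to a common level by the authors, so a difference is relative to the rest of the RNA labelled.

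Of the 63 probe sets 31 (49.2%) averaged more than 20 signal units over the 10 arrays and are called detectable here. The others are called undetectable, which states only a mean under this chosen level and not that the RNA was absent. The same level was passed by 68.1% of all non-control probe sets and by 82.3% of the 6319 probe sets with 1 protein-coding gene. The median of the mean signals was 19.6 for the members and 108.6 for the protein-coding probe sets. For scale, the 4 mouse control probe sets, which have no target in yeast, did not exceed 4.8 on any array. The highest mean among these controls was 2.14. Of the members 9 had a mean at or under 4.8, and 2 did not exceed 4.8 on any array. Altogether 24 members were above 20 on all 10 arrays, 23 were below it on all 10, and 16 had arrays on both sides. Signals of different probe sets depend on their own probes, so the order of the members in brightness is not an order of abundance.

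**Figure D1:**
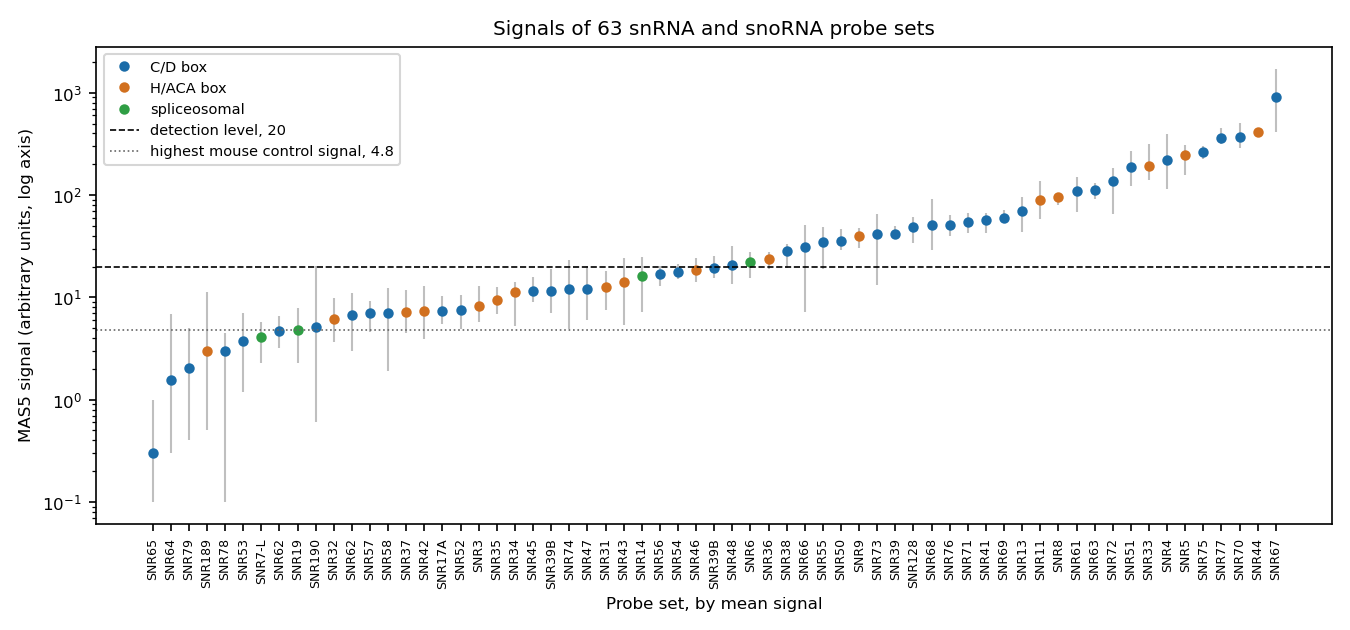
Mean MAS5 signal (log axis) of each of the 63 probe sets, in order of signal and coloured by RNA class, with a line from the lowest to the highest of the 10 arrays (signals under 0.1 drawn at 0.1). The dashed line marks the detection level of 20, which 31 probe sets pass, and the dotted line the highest mouse control signal of 4.8.

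Of the 4 spliceosomal RNAs 3 were undetectable. SNR19, the U1 RNA that recognises the start of an intron, read 2.7, 3.8, 3.7, 6.6 and 5.5 in edc3D and 3.8, 5.5, 2.3, 7.9 and 6.1 in WT (experiments A, B, C, E and G, an order kept below). SNR7-L, the long form of the U5 RNA that aligns the exons, averaged 4.48 ± 1.09 in edc3D and 3.72 ± 1.39 in WT (SD, n = 5 each). Its probe set carries the suffix for a shared sequence, and its gene overlaps that of the short form SNR7-S. SNR14, the U4 RNA that holds U6 inactive, averaged 17.4 ± 5.17 in edc3D and 14.9 ± 5.25 in WT (SD, n = 5 each). SNR6, the U6 RNA of the catalytic centre, was the 1 detectable snRNA. It read 15.4, 21.4, 23.3, 20 and 22.2 in edc3D and 25.0, 17.3, 26.4, 21.6 and 28.0 in WT. The strains overlapped, and the log2 difference was -0.20 ± 0.17 (SE) with a limma adjusted p of 0.9994.

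Of the snoRNAs known for processing of the ribosomal precursor, SNR17A and SNR190 were undetectable and SNR128 was detectable. SNR17A, the U3 RNA needed to make small-subunit rRNA, read from 5.5 to 9.6 in edc3D and from 5.9 to 10.4 in WT. All of these lay below 20 and above the highest mouse control signal of 4.8. Its gene overlaps IRC13 on the same strand in the R64 table. SNR190, which acts in processing of the large-subunit rRNA, was at 14.0 in edc3D and 20.4 in WT in experiment C and at no more than 4.3 on the other 8 arrays. Its neighbour SNR128, the U14 RNA, averaged 50.4 ± 10.97 in edc3D and 48.1 ± 8.83 in WT (SD, n = 5 each).

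Among the guide RNAs both classes held bright and dim members. Of the 42 C/D box probe sets 23 were detectable, with means from 0.30 for SNR65 to 904 for SNR67. Of the 17 H/ACA box probe sets 7 were detectable (SNR5, SNR8, SNR9, SNR11, SNR33, SNR36 and SNR44), with means of all 17 from 3.00 for SNR189 to 415 for SNR44. The 6 brightest members were SNR67, SNR44, SNR70, SNR77, SNR75 and SNR5. Just above the level lay SNR48 with a mean of 20.7 and SNR6 with 22.1, and just below it lay a probe set of SNR39B with 19.6 and SNR46 with 18.3. Of the 32 undetectable members 9 exceeded 20 on at least 1 array, and of the 31 detectable ones 7 were below it on at least 1. The members carry plain probe set names in 56 cases and names marking shared or irregular probes in 7, namely those of SNR7-L, SNR39B, SNR47, SNR57 and SNR62.

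The strain comparison called none of the members. After the dimmest 30% of all probe sets were left out, 34 members were tested, the 31 detectable ones with SNR54, SNR46 and 1 probe set of SNR39B, and 29 were too dim to be tested. limma called 0 of the 34 at an adjusted p under 0.05, against a background of 0.077% of the 6492 probe sets tested. With the experiment as a replicate block it again called 0, against a background of 0.447%. An unadjusted p under 0.05 was reached by 2 members (background 4.82%), SNR68 and SNR46, and with the block by 5 (background 23.1%), which adds SNR5, SNR41 and SNR51. With no filter on dim probe sets, 0 of the 63 members were called, with or without the block.

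SNR68, a C/D box guide for methylation of large-subunit rRNA, had the largest strain difference among the detectable members. It was singled out with earlier results of these arrays known, so its values are a description and its tests are no independent support. It read 48.7, 67.5, 46.5, 78.5 and 92.2 in edc3D, against 29.1, 33.7, 38.4, 37.3 and 34.3 in WT. The edc3D arrays were all higher, the groups did not overlap, and the WT values lay close together while those of edc3D spread widely. SNR68 was the 1 detectable member with no overlap of the strains, against a background of 1.2% of all tested probe sets. The means were 66.7 ± 19.5 in edc3D and 34.6 ± 3.64 in WT (SD, n = 5 each), and the ratio of the geometric means was 1.87.

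The log2 difference of SNR68 was 0.90 ± 0.19 (SE), and it was positive in all 5 experiments, at 0.74, 1.00, 0.28, 1.07 and 1.43. limma's adjusted p was 0.320 without the block, where the probe set ranked 9 by p, and 0.0501 with the experiment as a block, where it ranked 30. The exact two-sided permutation test over arrays gave 0.00794 and the exact sign-flip test over experiments 0.0625, each the smallest value its design allows. With experiments A to C alone the difference was 0.67 and the strains still did not overlap (adjusted p = 0.9995; 0.410 with the block). With E and G averaged as 1 replicate it was 0.82 (adjusted p = 0.9996; 0.171 with the block). It passed with experiments E and G alone (1.25, adjusted p = 0.00308), with array weights (1.15, adjusted p = 0.0128) and in the blocked fit without experiment C (1.06, adjusted p = 0.0254). In these fits 1263, 106 and 26 of all 6492 tested probe sets passed, and the first rests on arrays that are nearly alike.

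The nearest protein-coding gene with a probe set on the right of SNR68 is FLX1, on the same strand, which encodes a mitochondrial flavin carrier. Its signal averaged 72.3 ± 3.5 in edc3D and 63.7 ± 7.85 in WT (SD, n = 5 each), and its log2 difference was 0.19 ± 0.11 (SE, limma adjusted p = 0.9994). VHS2, on the left beyond YIL134C-A, had a log2 difference of 0.30 ± 0.16 (SE), and its blocked adjusted p was 0.0838.

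**Figure D2:**
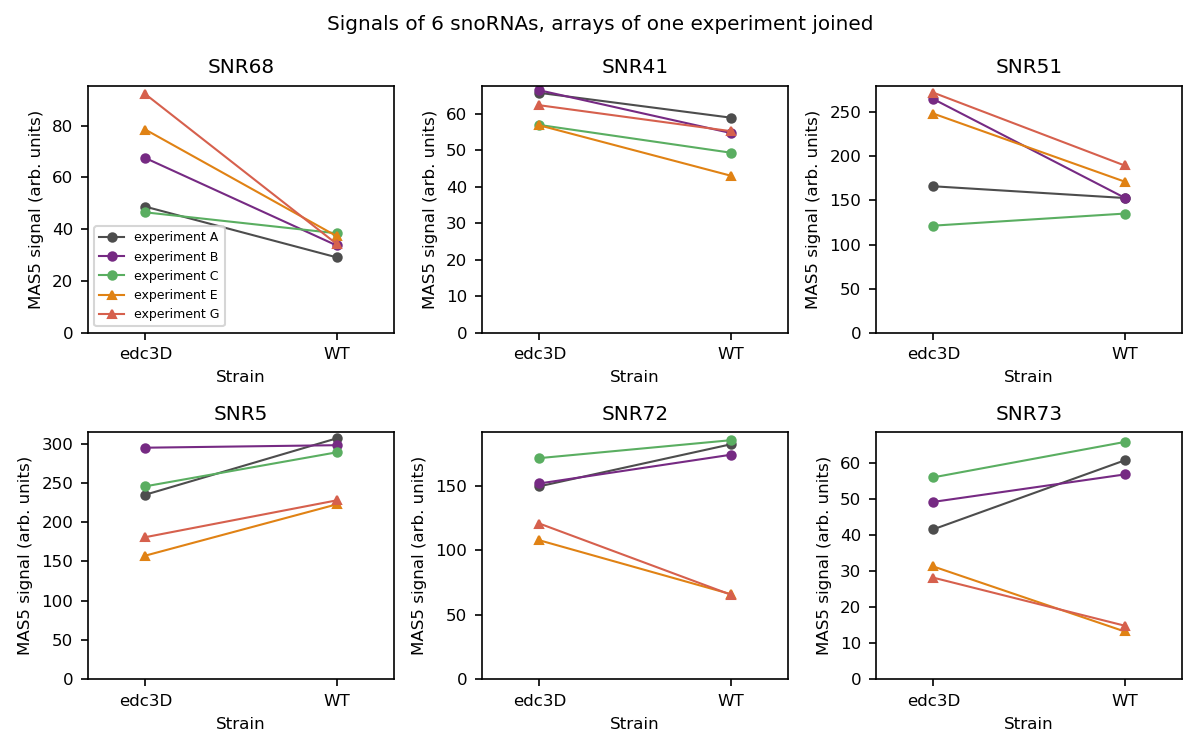
MAS5 signals (linear axes from 0) of 6 snoRNAs on each array, edc3D on the left and WT on the right, with the arrays of one experiment joined by a line. For SNR68 and SNR41 all 5 lines are higher at edc3D and for SNR5 all 5 are lower, while for SNR72 and SNR73 experiments A to C slope the opposite way from E and G.

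Other members with small p values differed less. SNR41, a guide for methylation of small-subunit rRNA, read 65.7, 66.4, 56.9, 56.8 and 62.3 in edc3D, against 58.9, 54.7, 49.3, 43.0 and 55.2 in WT. It was higher in edc3D in all 5 experiments although the groups overlapped. The log2 difference was 0.24 ± 0.11 (SE) with an adjusted p of 0.9994 and of 0.111 with the block. The mean difference of SNR41 was 0.21 in A to C and 0.29 in E and G. SNR51, its neighbour on chromosome XVI, read 166.1, 265.1, 121.4, 248.6 and 272.4 in edc3D, against 152.8, 153.1, 135.1, 171.4 and 189.7 in WT. It was higher in 4 of 5 experiments, by 0.36 ± 0.21 (SE, adjusted p = 0.9994; 0.144 with the block), and lower in experiment C. Its mean log2 difference was 0.25 in A to C and 0.53 in E and G. SNR70, which lies between those 2 genes, had a log2 difference of 0.05 ± 0.15 (SE). The 3 adjacent genes thus gave differences of 0.36, 0.05 and 0.24 in their chromosomal order.

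SNR5, an H/ACA box guide for pseudouridines of large-subunit rRNA, was the detectable member furthest in the other direction. It read 234.9, 294.8, 245.6, 157.3 and 180.8 in edc3D, against 306.7, 298.0, 288.9, 222.6 and 227.7 in WT. It was lower in edc3D in all 5 experiments, by as little as 0.02 in experiment B, and the groups overlapped. Its log2 difference was -0.29 ± 0.17 (SE, adjusted p = 0.9994; 0.0836 with the block). The mean difference of SNR5 was -0.21 in A to C and -0.42 in E and G. HEM4, the protein-coding gene next to SNR5 on the same strand, which encodes an enzyme of haem synthesis, was lower in 3 of 5 experiments. The log2 difference of HEM4 was -0.07 ± 0.16 (SE, adjusted p = 0.9994), and with the block its SE was 0.07 and its adjusted p 0.577. CAF20, which encodes a translation regulator and lies on the same strand beyond SNR31, had a log2 difference of -0.19 ± 0.10 (SE), with an adjusted p of 0.9994 and of 0.106 with the block.

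SNR75 was also lower in all 5 experiments, but only by 0.04 to 0.21 on the log2 scale, with means of 256 ± 24.6 in edc3D and 273 ± 20.7 in WT (SD, n = 5 each). SNR46, below the detection level, was higher in edc3D in all 5 experiments, at 20.9 ± 4.18 in edc3D and 15.7 ± 1.43 in WT (SD, n = 5 each), with overlapping groups. Its log2 difference was 0.39 ± 0.17 (SE) with an adjusted p of 0.993 and of 0.148 with the block. SNR11 and SNR63, guides for large-subunit rRNA, were higher in 4 of 5 experiments, by 0.27 ± 0.21 and 0.18 ± 0.12 (SE). SNR33 was higher in 3 of 5, by 0.15 ± 0.21 (SE). The mean differences of SNR11, SNR63 and SNR33 were 0.08, 0.13 and 0.25 in A to C. In E and G they were 0.55, 0.27 and 0.001. With the block the SEs of SNR11, SNR63 and SNR33 were 0.12, 0.08 and 0.08, and limma's adjusted p 0.232, 0.236 and 0.307. None of these passed in either fit.

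Over the 31 detectable members the median log2 difference was 0.05, with 20 higher and 11 lower in edc3D. Over all tested probe sets the median was -0.004 and 48.9% were higher. The differences of 29 of the 31 lay within 0.3 of 0, the exceptions being SNR68 and SNR51. The count of members higher in edc3D was 15, 15, 17, 15 and 21 of 31 in experiments A, B, C, E and G, with medians of -0.01, -0.0009, 0.03, -0.003 and 0.07. A single sign was kept by 4 members in all 5 experiments (SNR68, SNR41, SNR5 and SNR75), which is 12.9% of them, against a background of 20.4% of all tested probe sets. Both shares count E and G as separate experiments. By class, 17 of 23 C/D box members were higher in edc3D with a median of 0.06, and 3 of 7 H/ACA box members with a median of -0.005. The median of all 31 was 0.02 with experiments A to C alone, 0.003 without the edc3D array of experiment B, 0.10 without the WT array of B and 0.0082 without the WT array of E.

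**Figure D3:**
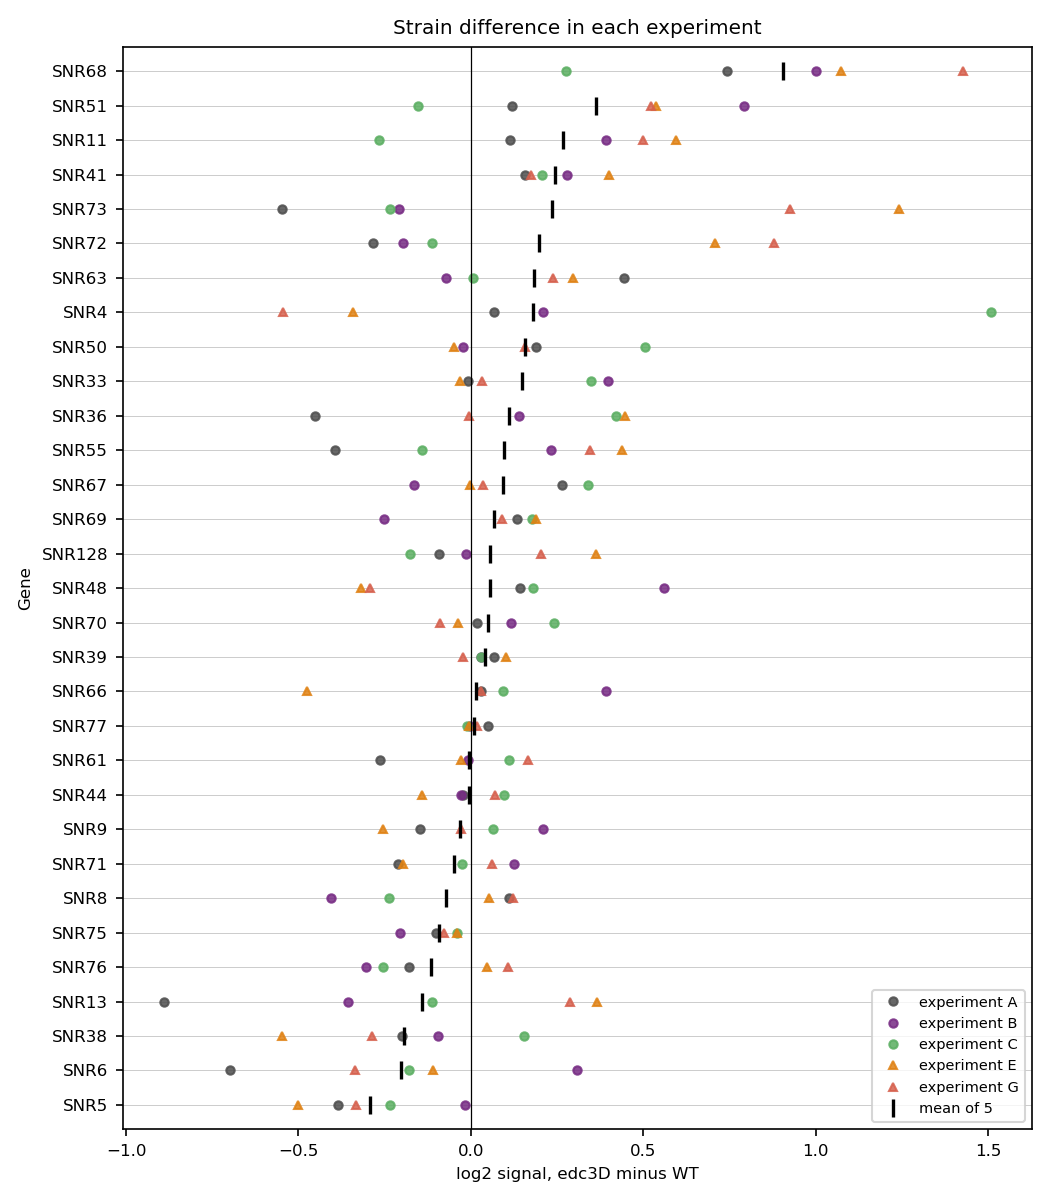
Log2 signal in edc3D minus WT for the 31 detectable members in each of the 5 experiments (coloured points), in order of their mean (black bars). SNR68 has a mean of 0.90 with all 5 points above 0, and 29 of the 31 means lie within 0.3 of 0.

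Several snoRNAs had signals that differed widely between experiments, and for some of them the strains did not follow each other. The median range of the 5 experiment means was 1.49-fold for the members and 1.40-fold for all tested probe sets. Of the 31 members 7 (22.6%) spanned over 2-fold, against a background of 9.4%. Among these 7 were SNR66, whose signals in E and G all lay below 20, and SNR48, with a mean of 20.7. For 10 of the 31 (32.3%) all 4 arrays of E and G lay apart from all 6 of A to C, against a background of 26%. The split of the experiments was itself found from these data, so these counts are a description with no test. Of the 10, 9 were lower in E and G, SNR66 among them.

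SNR67, a methylation guide for large-subunit rRNA, read 1116, 1535, 1147, 430 and 420 in edc3D, against 929, 1719, 906, 431 and 409 in WT. Within an experiment the strains differed by at most 0.34 on the log2 scale, while experiments E and G were 0.355 times the level of A to C. Its log2 strain difference was 0.09 ± 0.46 (SE) and narrowed to an SE of 0.07 with the block. SNR53, which lies next to it, was undetectable, at 4.06 ± 1.13 in edc3D and 3.44 ± 2.14 in WT (SD, n = 5 each). SNR66, another methylation guide for large-subunit rRNA, read 51.3, 47.5, 44.4, 7.2 and 9.5 in edc3D, against 50.3, 36.2, 41.6, 10 and 9.3 in WT. All 6 arrays of experiments A to C lay between 36.2 and 51.3, and all 4 of E and G lay below 20, where no ratio is given.

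The nearest protein-coding genes were read in the same way. The ratio of E and G to A to C was 0.905 for RML2 beside SNR67, and 0.7895 for SSN8 and 0.878 for KSH1 on the sides of SNR66. These neighbours lie on the opposite strand.

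SNR4, a C/D box RNA that guides acetylation of small-subunit rRNA, had its highest WT signals in E and G. It read 120.4, 150.6, 395.9, 232.3 and 249.1 in edc3D, against 114.9, 130.3, 139.2, 294.4 and 363.5 in WT. In WT both E and G were above A to C, whereas in edc3D the brightest array was that of experiment C, where the strains stood apart by 1.51 on the log2 scale. The ratio of E and G to A to C was 1.03 for RPS26B and 1.34 for PMD1, the nearest protein-coding genes. SNR13, a methylation guide for large-subunit rRNA, read 44.0, 55.3, 49.8, 96.3 and 92.0 in edc3D, against 81.5, 70.8, 53.8, 74.7 and 75.3 in WT. Its edc3D arrays were brightest in E and G, while in WT the array of experiment A was the brightest.

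**Figure D4:**
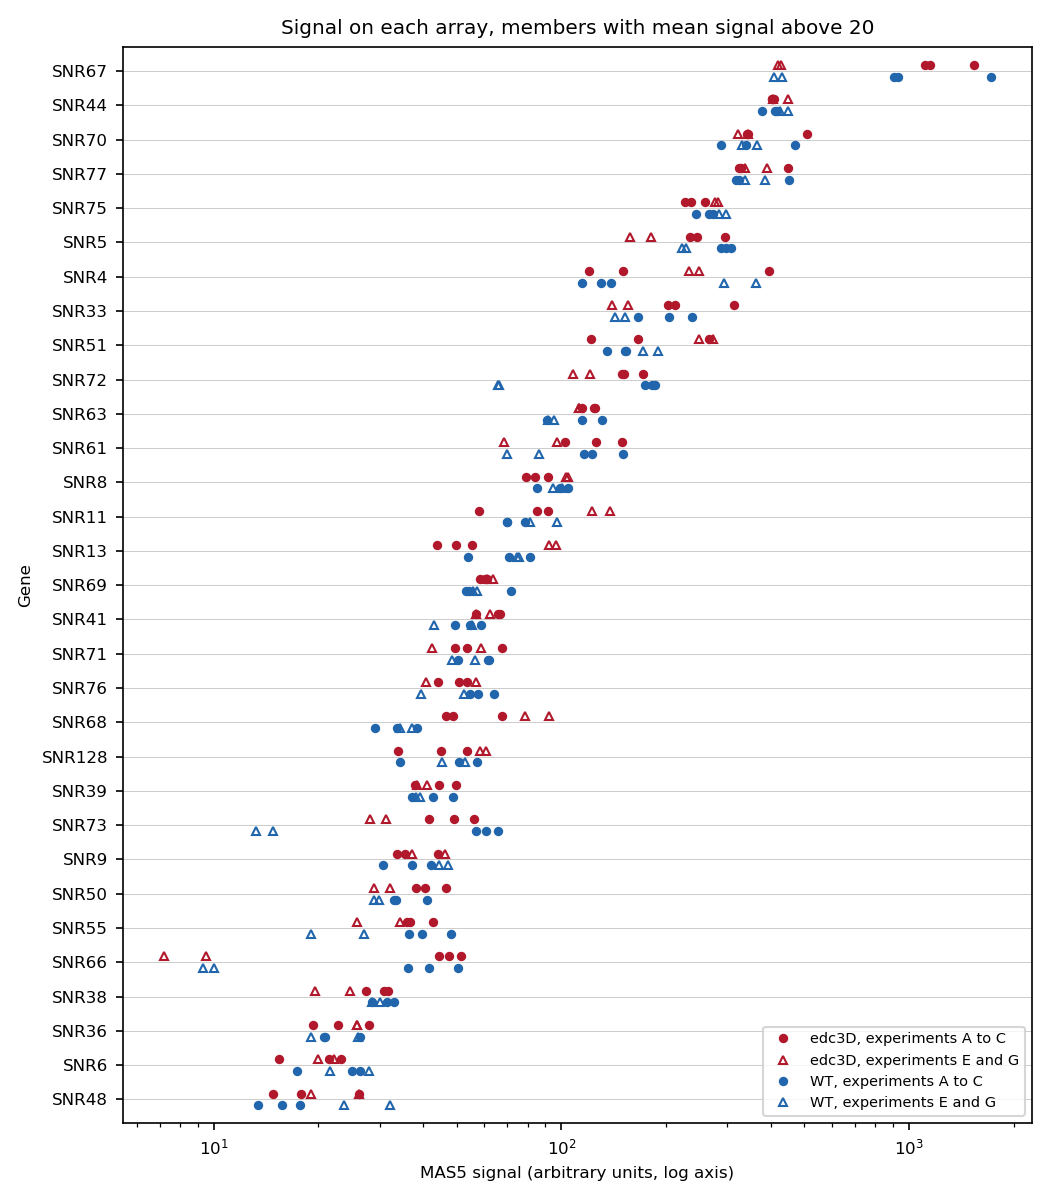
MAS5 signal (log axis) of the 31 detectable members on each of the 10 arrays, edc3D in red above WT in blue, with filled circles for experiments A to C and open triangles for E and G. For SNR67 and SNR66 the triangles of both strains lie far left of the circles, and for SNR68 all red points lie right of the blue ones.

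The 7 adjacent snoRNA genes on chromosome XIII did not vary alike. SNR78, SNR77, SNR76, SNR75, SNR74, SNR73 and SNR72 follow one another on 1 strand in the R64 table, and as background they are made from a common precursor that is cut into the single C/D box RNAs. SNR77 and SNR75 were bright, with E and G at 1.00 and 1.14 times the level of A to C, and SNR76 was at 0.870 times. SNR73 and SNR72, at the 3′ end of the row, had all 4 arrays of E and G below all 6 of A to C, and SNR72 was at 0.514 times the level. SNR74 and SNR78 were undetectable, with means of 12.03 and 3.01, and their arrays of E and G overlapped those of A to C. SNR74 read 8.3, 23.0, 14.3, 5.6 and 9.2 in edc3D, against 17.7, 18.6, 12.9, 5.8 and 4.9 in WT. Its overlap came only from 9.2 in experiment G and 8.3 in experiment A, both in edc3D. At these dim signals no ratio is given. Of the protein-coding genes at the ends of the row, SEC59, beside SNR78 on the opposite strand, was at 0.729 times the level and BUD22, beside SNR72 on the same strand, at 1.16 times.

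SNR72 and SNR73 also had strain differences of opposite sign in A to C and in E and G. SNR72 read 149.7, 151.9, 171.6, 107.8 and 120.8 in edc3D, against 182.3, 174.2, 185.5, 66.0 and 65.6 in WT. SNR73 read 41.5, 49.1, 55.9, 31.2 and 28.1 in edc3D, against 60.6, 56.7, 65.7, 13.2 and 14.8 in WT. Both were lower in edc3D in all of experiments A to C and higher in E and G. The mean log2 differences of SNR72 were -0.20 in A to C and 0.79 in E and G. Those of SNR73 were -0.33 and 1.08, but its WT signals in E and G lay below the detection level of 20, so the 1.08 rests on dim signals.

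Over all 5 experiments SNR72 differed by 0.20 ± 0.32 (SE) and SNR73 by 0.24 ± 0.47 (SE), both with an adjusted p of 0.9994. With the block the SEs were 0.18 and 0.26, and limma's adjusted p 0.537 and 0.616. Of the 31 members 8 had 1 sign in A to C and the other in E and G, which is 25.8%, against a background of 6.96% of all tested probe sets. They were SNR72, SNR73, SNR76, SNR13 and SNR128, lower in A to C, and SNR4, SNR48 and SNR70, higher in A to C. SNR72, SNR73 and SNR76 belong to the same row of chromosome XIII. Some differences were small, such as 0.13 in A to C and -0.06 in E and G for SNR70, and -0.25 and 0.08 for SNR76. The split was found from these data and E and G are nearly alike, so this share is a description with no test. Whether the strain difference itself differs between the sets of experiments was not tested. SNR72, SNR76, SNR13 and SNR128, like SNR53, SNR55, SNR57, SNR61, SNR74, SNR78, SNR190 and the protein-coding neighbours, were chosen for mention after values were seen.

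**Figure D5:**
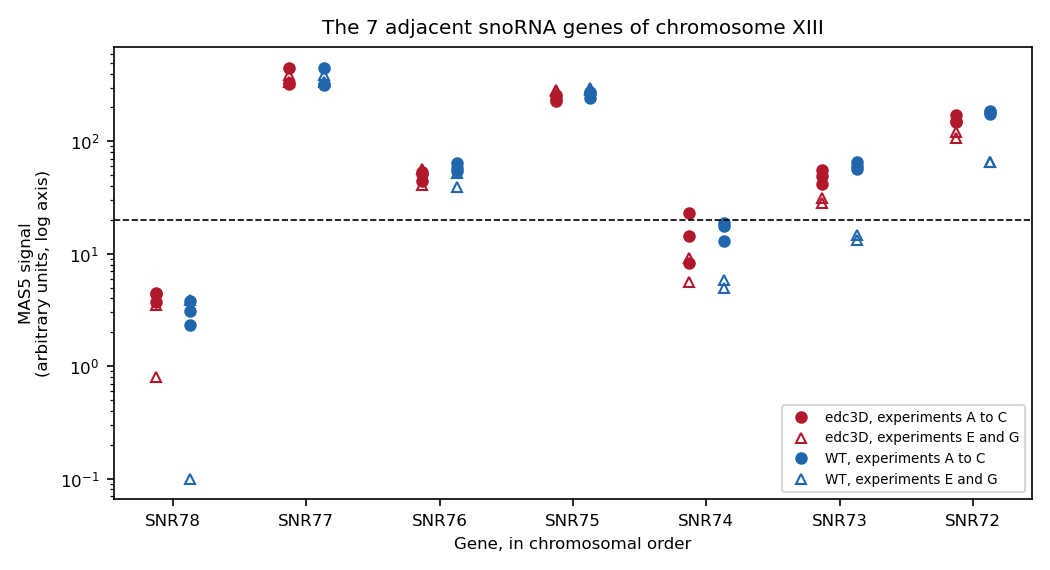
MAS5 signal (log axis) on each array for the 7 adjacent snoRNA genes of chromosome XIII in their order on the strand, edc3D in red left of WT in blue, filled circles for experiments A to C and open triangles for E and G, with the detection level of 20 dashed. SNR77 and SNR75 are at 1.00 and 1.14 times their level in the other experiments in E and G, while SNR73 and SNR72 are lower in E and G on every array (a signal of 0.1 was read for SNR78 in WT in experiment E).

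A similar set is formed by SNR61, SNR55 and SNR57 on chromosome XII. SNR61 averaged 108.6 ± 30.8 in edc3D and 109.2 ± 31.8 in WT, and SNR55 35.1 ± 6.08 in edc3D and 34.1 ± 11.3 in WT (SD, n = 5 each). Both were lower in E and G, at 0.6265 and 0.655 times the level of A to C. SNR57 was undetectable, with a mean of 6.98.

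Some snoRNAs are released from introns, and 4 members lie inside a protein-coding gene on the same strand in the R64 table. SNR44, inside RPS22B, which encodes a small-subunit ribosomal protein, was the steadiest detectable member, with experiment means that spanned 1.12-fold. It averaged 414 ± 19.0 in edc3D and 416 ± 26.3 in WT (SD, n = 5 each), and edc3D minus WT was -0.01 ± 0.08 on the log2 scale (SE). The RPS22B probe set that stands for the gene averaged 3131 ± 118 in edc3D and 3321 ± 231 in WT (SD, n = 5 each), and edc3D minus WT was -0.08 ± 0.07 on the log2 scale (SE). SNR39, inside the ribosomal protein gene RPL7A, averaged 42.4 ± 4.88 in edc3D and 41.2 ± 4.69 in WT (SD, n = 5 each). On the log2 scale SNR39 differed by 0.04 ± 0.12 and RPL7A by 0.05 ± 0.12 (SE).

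SNR38 lies inside TEF4, which encodes a subunit of a translation elongation factor. It read 27.5, 30.8, 31.7, 19.5 and 24.7 in edc3D, against 31.6, 32.9, 28.5, 28.5 and 30.1 in WT, lower in edc3D in 4 of 5 experiments with overlapping groups. Its log2 difference was -0.19 ± 0.15 (SE) and that of TEF4 -0.02 ± 0.14 (SE). SNR54, inside IMD4, an enzyme gene of guanine nucleotide synthesis, was below the level at 18.4 ± 1.71 in edc3D and 16.6 ± 1.75 in WT (SD, n = 5 each). Its log2 difference was 0.15 ± 0.14 (SE) and that of IMD4 -0.07 ± 0.10 (SE). None of the 4 snoRNAs or their hosts passed limma's test in either fit. Of 8 host genes of intronic snoRNAs on the list used here, 1 was higher and 7 lower in edc3D at their brightest probe sets. Their median log2 difference was -0.08, with 0 called. Other probe sets gave the opposite sign for RPL7B (0.54), TEF4 (0.02) and IMD4 (0.02), as did a probe set of RPL7A (-0.04). Those of EFB1, ASC1, RPS22B and NOG2 kept the sign.

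The proteins that make and carry these RNAs were read from lists of genes. The 4 core proteins of C/D box particles, which bind the RNA and hold the methylase Nop1, were all lower in edc3D at their brightest probe sets, with a median log2 difference of -0.07 and 0 called. NOP56, a scaffold protein, averaged 461 ± 35.5 in edc3D and 524 ± 58.2 in WT (SD, n = 5 each), and edc3D minus WT was -0.18 ± 0.10 on the log2 scale (SE), with an adjusted p of 0.9994 and of 0.140 with the block. NOP58, its partner, differed by -0.10 ± 0.14 (SE) at the probe set that stands for it, and its other 3 probe sets gave -0.08, 0.04 and 0.22.

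Of the 4 core proteins of H/ACA box particles 3 had a probe set of their own, all 3 lower in edc3D, with a median of -0.14. CBF5, the pseudouridine synthase, averaged 1405 ± 165 in edc3D and 1664 ± 240 in WT (SD, n = 5 each) and was lower in all 5 experiments. Its log2 difference of -0.24 ± 0.11 (SE) was not called without the block (adjusted p = 0.9994), and with the block it was called (adjusted p = 0.0466), the 1 gene of 47 tested in these lists, against the background of 0.447% given above. That call was lost in the blocked fits with no filter on dim probe sets (adjusted p = 0.0589), with E and G averaged (-0.23, adjusted p = 0.188) and with A to C alone (-0.22, adjusted p = 0.432). It was also lost on leaving out any 1 experiment, where the limma adjusted p ran between 0.0544 and 0.205. NHP2, an RNA-binding subunit, differed by -0.14 ± 0.13 (SE, adjusted p = 0.9994; 0.0887 with the block).

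The medians of the other lists lay near 0, with genes on both sides. Of 9 assembly factors 3 were higher and 6 lower in edc3D, with a median of -0.03, TAH1 at -0.15 ± 0.09 and HIT1 at 0.20 ± 0.20 (SE). Of 15 genes for transcription termination and 3′ end maturation 6 were higher and 9 lower, with a median of -0.05 and differences from -0.26 to 0.28. AIR2, a subunit of the complex that adds short adenosine tails, differed by -0.22 ± 0.12 (SE) and the nuclear exonuclease gene RAT1 by -0.19 ± 0.11 (SE). With the block the SEs of AIR2 and RAT1 were 0.09 and 0.07, and limma's adjusted p 0.198 and 0.184. Of the 8 genes for cap hypermethylation and the Sm ring, the protein ring on spliceosomal RNAs, 4 were higher and 4 lower, with a median of -0.01. SMD3 was at -0.17 ± 0.09 (SE) and lower in all 5 experiments, and SME1 was at 0.29 ± 0.18 (SE) and higher in all 5. With the block the SEs of SMD3 and SME1 were 0.05 and 0.08, and limma's adjusted p 0.106 and 0.0928. None of these 3 lists had a member called in either fit. With the block limma's unadjusted p was under 0.05 for 1, 7 and 2 of their genes, in the order given, against a background of 23.1%.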

How the data were processed

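RNA of 5 arrays per strain was analysed from the deposited intensities, which per the submitters' processing notes are MAS5 signals; the sources used here give no software version. The signals are linear, and the 2%-trimmed means of the arrays differ by 0.0186% at most, so that scaling was kept. Array medians lie between 58.2 and 66.8. The number of arrays limits the precision. Instrument records were read for the chip lot.

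All 63 members matched the R64 table by gene identifier, which gave symbols, RNA kinds and gene order; no coordinates are printed because the sources used here name no build for the probes. The box class was assigned from a list. Signals became log2 values with 156 signals of 0 raised to 0.1. The dimmest 30% of 9275 probe sets by mean log2 signal, under 16.8, were left out. The 6492 others were fitted with limma 3.58.1 in R 4.3.3 (eBayes with trend, edc3D minus WT, no block) across all probe sets, with Benjamini-Hochberg adjustment, two-sided, threshold 0.05. Errors written SE are limma's, from the fit without the block unless the block is named. A gene with several probe sets is represented in lists by the brightest. The fit was tested on simulated data.

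Same-numbered arrays of the strains deviated together from the strain means (correlations 0.475 to 0.713 across probe sets). The labels give them 1 letter, so they were taken as paired. The main fit leaves this pairing out, and its SE can be larger (for SNR33 0.21, against 0.08 with the block). A blocked value is given where it bears on a call and for some further genes. p-values treat the labelled replicates as independent.

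Named were SNR68; the 6 brightest detectable members; the 8 of smallest p in each fit; the 4 with the largest range over experiments; 2 on each side of the level; snRNAs and U3; members inside a host gene; and 2 genes of smallest p per list. The members and lists were chosen with earlier results of these data known. The alternatives are in the closing section.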

Additional observations from a re-analysis of the deposited data

Results flagged for a closer look

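In groups of 5 arrays, a lone highest or lowest signal was looked for with Dixon's ratio of its gap to the group's range (critical value 0.71). Of 62 groups, the 31 detectable members in each strain, 3 had one; chance gives about 1 in 20 groups. SNR70 in edc3D had its highest signal in experiment B, 508.9 against 344.9 for the next array, and WT was also highest there, at 469.0. SNR44 in edc3D had it in experiment G, 447.6 against 409.7. SNR69 in WT had it in experiment B, 71.8 against 57.3.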

How the results depend on the processing

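The count of members called was 0 in 26 of 30 alternatives. Of the 34 members tested it was 1 with array weights, where 106 of all 6492 probe sets were called. With experiments E and G alone it was 8, beside 1263 of all 6492, and 9 there with the replicate block, beside 2277. On leaving out an array without the block the count of members stayed 0. On leaving out an experiment with the block it ran from 0 to 1. SNR68 kept its sign in all 30, with log2 differences from 0.67 to 1.25 and adjusted p from 1.47e-04 to 0.9996. It passed with array weights (1.15), with E and G alone (1.25 in both fits) and in the blocked fit without experiment C (1.06); on leaving out single arrays or experiments it ran from 0.77 to 1.06.

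The count over all probe sets was 5. It was 29 with the replicate block, 3 and 8 (block) with E and G averaged, 3 without trend, 106 with array weights, 10 with the chip lot as a block, 2 and 3 (block) for A to C alone, and 1263 and 2277 (block) for E and G alone, whose arrays are nearly alike. Without the filter and with the block, an alternative chosen after seeing the data, it was 18. Leaving out single arrays gave 3 to 4, and leaving out experiments with the block 7 to 30. The cause of these shifts was not tested.

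The median difference of the detectable members was 0.05; it was 0.020 for A to C alone and ran from 0.0030 to 0.10 without single arrays. The number of detectable members was 31, 43 at a level of 10, 20 at 50, 30 by the geometric mean and 24 when every array had to pass. No detection calls were analysed here, so absence of an RNA was not assessed.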
